A study of Mus musculus with 11 samples.

Results

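The genes described here encode the proteins of the cytosolic ribosome. They were taken from the 54146 gene records of the deposited tables as the protein-coding genes whose symbols begin with Rpl or Rps followed by a number, p or a, leaving out the ribosomal S6 kinases, Rps19bp1 and names that mark a pseudogene copy. The rule gave 85 genes, of which 46 encode large-subunit proteins, 31 encode small-subunit proteins and 8 are paralogs of another member. Another 318 records matched the symbol pattern but not the rule, and 301 of these were pseudogene records. The rule used symbols and gene types only, and no measured value.

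The study asked which transcripts change in mouse embryos that lack PRDM10, a zinc finger transcription factor. RNA-seq libraries were made by Smart-seq2, an oligo-dT-primed method with PCR amplification of the cDNA, from 11 single C57BL/6 embryos at E2.5 (8-cell stage), each embryo one library, from natural matings between Prdm10Δ/+ parents. The 5 mutants were Prdm10Δ/Δ, without exon 5 of the gene, and the 6 controls were Prdm10+/+ or Prdm10Δ/+, which the labels do not tell apart, so that any effect of 1 lost allele lies within the control group. Embryos were assigned by qRT-PCR for exon 5 and were isolated and processed in 2 batches: batch 1 held 3 controls (replicates 4 to 6) and 2 mutants (replicates 4 and 5) with 16 cycles of cDNA pre-amplification, and batch 2 held 3 controls and 3 mutants (replicates 1 to 3 of each) with 13 cycles.

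Libraries held 3534735 to 8265840 expected counts, the lowest in control replicate 2 of batch 2. Prdm10 itself was at 11.1 to 24.8 TPM (a length-scaled share of each library's transcripts) in controls and at 4.88 to 8.16 TPM in mutants, without overlap, but it was not called (log2 fold change -0.66, DESeq2 adjusted p = 0.225). Counts per gene include reads from exons outside the deletion. Of 8 genes of the early embryo, all were above 1 TPM in every library. The summed level of 8 cumulus-cell genes reached 5.03 TPM at most, that of 6 oviduct genes 33.3 TPM and that of 6 blood genes 33.6 TPM, each peak lying in batch 2.

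A ribosome contains 1 copy of most of its proteins, and their messenger RNAs are among the most abundant of any growing cell. Vertebrate ribosomal protein mRNAs typically begin with a cytosine followed by an uninterrupted run of pyrimidines, the 5′ terminal oligopyrimidine (TOP) tract, through which mTOR signalling and LARP1 control their translation. The early mouse embryo starts transcribing these genes strongly when its own genome is activated, before the 8-cell stage. Each ribosomal protein gene has given rise to many processed pseudogenes, which share long stretches of sequence with the parent gene.

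The starts of these genes are shown first because the TOP tract is the feature for which the family's mRNAs are known. RefSeq windows on GRCm38.p6, each with 250 bases before and 50 bases after an annotated start, were at hand for 65 of the 85 members. A run of at least 7 pyrimidines beginning with C lay within 10 bases of an annotated start in 33 of the 65 (50.8%), compared with 17.7% of the 27025 genes that have a window. Below are 15 bases on either side of the start on the gene's own strand, with that run in capitals; Rpl19 and Rps27l have 2 annotated starts each, and Rpl41 and Rpl7l1 are shown as members without the run in this window.
Rpl19, first start, chr11:98026695-98026724 (+): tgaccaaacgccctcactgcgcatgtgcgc
Rpl19, second start, chr11:98026909-98026938 (+): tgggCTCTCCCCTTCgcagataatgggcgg
Rpl27a, chr7:109519180-109519209 (+): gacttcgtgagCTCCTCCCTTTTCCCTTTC
Rps27, chr3:90213634-90213663 (-): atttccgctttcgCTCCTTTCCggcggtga
Rps27l, first start, chr9:66946071-66946100 (+): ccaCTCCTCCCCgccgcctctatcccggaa
Rps27l, second start, chr9:66946398-66946427 (+): accatgggcttcagggtcactaacgggcct
Rpl41, chr10:128549154-128549183 (-): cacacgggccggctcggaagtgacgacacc
Rpl7l1, chr17:46782642-46782671 (-): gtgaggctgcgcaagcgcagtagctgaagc
Of the paralogs with a window, 3 of 8 held the run, as did 18 of 34 large-subunit and 12 of 23 small-subunit genes. Annotated starts can lie some bases from the true start, so a missing run says only that it is absent from this window. A counted run need not begin at the annotated start. At the second start of Rpl19 and the first of Rps27l it lies wholly before that start, outside the annotated transcript.

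All 85 members were above 0 in every embryo. The members together held 10.8% to 13.9% of all TPM, and 36 of them were among the 100 genes with the highest median TPM. The median member was at 1401 TPM (quartiles 788 and 2094), with 1305 TPM for the large-subunit genes and 1692 TPM for the small-subunit genes. These are levels per transcript length, so they can be compared between genes.

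The highest member was Rpl41, which encodes the smallest ribosomal protein, at a median of 4897 TPM (lowest 3700, highest 6039 over the 11 embryos). Also among the highest were Rplp1, one of the acidic proteins of the ribosomal stalk that recruits translation factors, at 3177 TPM (2456 to 3734), and Rpl7, a large-subunit protein, at 2953 TPM (2428 to 3545). The ranges of Rplp1 and Rpl7 over embryos overlapped, and Rpl41 overlapped Rplp1 by a small margin.

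At the other end lay Rpl3l, a paralog of Rpl3 known from heart and skeletal muscle, at a median of 1.51 TPM. Rpl12, a protein of the stalk base, was at 22.3 TPM, Rpl10l, a retrogene copy of Rpl10 known from the testis, at 29.4 TPM, Rpl5, which carries 5S rRNA into the ribosome, at 60.8 TPM, and Rpl7l1, a relative of Rpl7 that acts in ribosome assembly, at 105 TPM. Rpl12 and Rpl5 thus stood at the bottom of the list although the ribosome needs their proteins as much as those of the top genes.

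Other records with the same sequence as these genes were listed at higher values. The pseudogene Gm15500 was listed at a median of 2239 TPM and holds the 894 coding bases of Rpl5 with 0 differences. Gm10275, at 917 TPM, holds the 498 coding bases of Rpl12 with 0 differences. In all, 71 of the 85 members had at least 1 noncoding record of which 50% or more of the 31-base words lay in a member's transcripts, 308 such records in total. With their values added, Rpl5 rose from 60.8 to 2320 TPM and Rpl12 from 22.3 to 934 TPM.

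The same addition raised Rpl27 from 291 to 2040 TPM, Rps12 from 169 to 1115 TPM, Rpl27a from 224 to 1469 TPM and Rps23 from 487 to 2193 TPM. It raised 18 members by more than 1.5-fold and 12 by more than 2-fold. Among the 77 genes that are not paralogs, the number below 500 TPM went from 11 to 1, and the SD of log2 TPM between genes fell from 1.26 to 0.66. The remaining gene was Rpl35, at 483 TPM. Rpl41 went from 4897 to 10464 TPM. Whether such reads came from the parent gene or from a transcribed copy cannot be told apart in these tables, so that the single values of those 18 genes are uncertain.

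**Figure D1:**
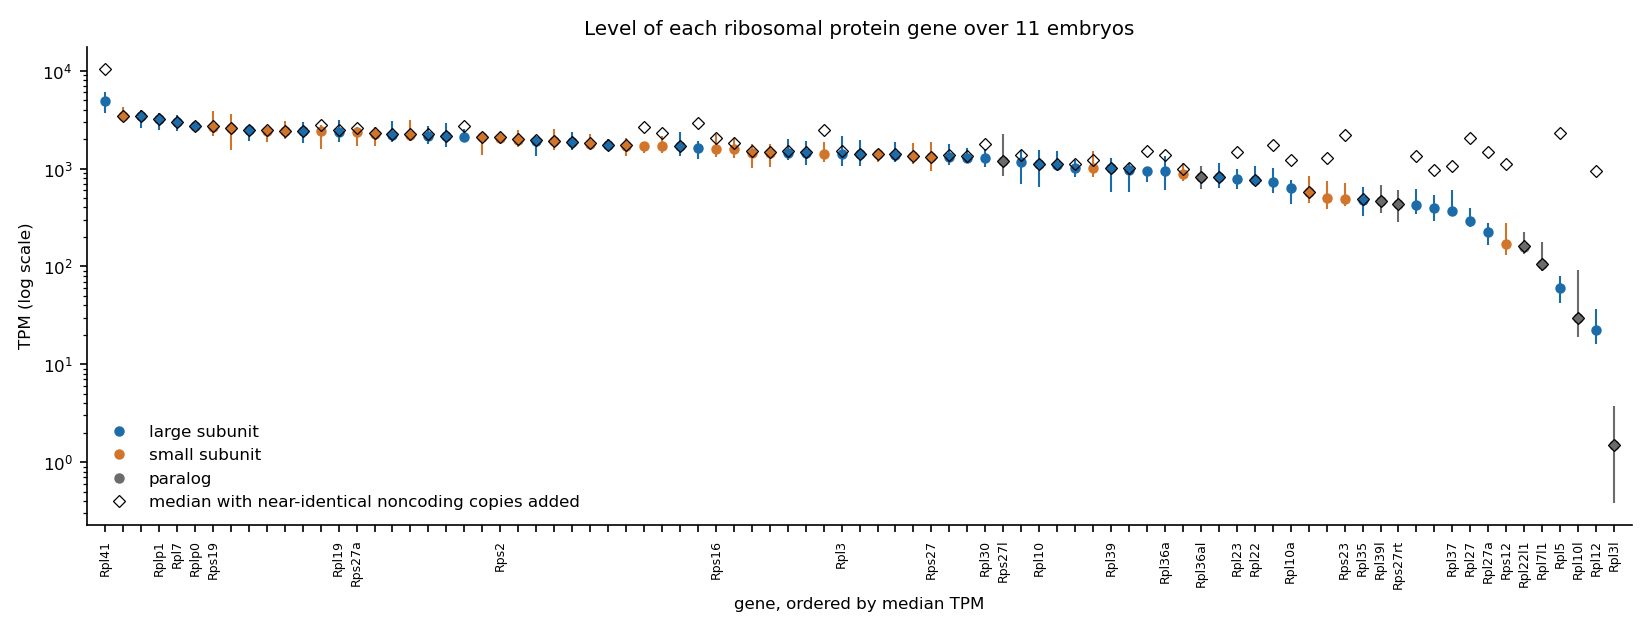
Each position on the horizontal axis is 1 of the 85 ribosomal protein genes, ordered by median level and labelled where the text names it, and the vertical axis gives TPM on a log scale; filled points are medians and vertical lines span the lowest to the highest of 11 embryos, coloured by subunit, and open diamonds are medians after near-identical noncoding copies were added. The quartiles lie at 788 and 2094 TPM, and Rpl5 and Rpl12 move from the low end to 2320 and 934 TPM when the copies are added.

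The paralogs of core proteins were mostly minor partners, but not all. Rps27l, a relative of Rps27 known as a p53 target, was at a median of 1195 TPM beside 1324 TPM for Rps27, and made up 39.4% to 59.1% of the pair over the embryos. Rpl36al was at 828 TPM beside 947 TPM for Rpl36a (37.6% to 56.5% of the pair). Rpl39l, which is best known from male germ cells, was at 465 TPM beside 1001 TPM for Rpl39 (24.4% to 49.1%). In some embryos Rps27l and Rpl36al exceeded their partners, and Rpl39l did so in none. These partner levels leave out copies. Rpl36a-ps2, a pseudogene with all of its 31-base words inside Rpl36a, was listed at 233 to 601 TPM. With copies added, the median of Rpl36a was 1363 TPM and that of Rpl36al stayed at 828 TPM. Rps27rt has the coding sequence of Rps27. Which member of these 2 pairs was the higher in an embryo is therefore uncertain.

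Rpl22l1, a paralog of Rpl22 whose level is known to rise when Rpl22 is lost, made up 12.5% to 22.2% of its pair, at a median of 156 TPM beside 767 TPM. Rpl10l made up 1.87% to 8.00% of the pair with Rpl10 (1106 TPM), Rpl7l1 5.17% to 6.38% of the pair with Rpl7 in batch 1 and 2.47% to 3.43% in batch 2, and Rpl3l 0.0211% to 0.303% of the pair with Rpl3 (1408 TPM). Coding sequences were 76.1% identical between Rps27 and Rps27l and 87.9% identical between Rpl36a and Rpl36al. Rps27rt, a retrotransposed copy, was at 431 TPM, and its 255 coding bases are identical to those of Rps27, so that its level apart from Rps27 is uncertain. Coding bases 7 to 36 are printed to show how far the 3 genes can be told apart, with bases that differ from Rps27 in capitals (GENCODE transcripts, GRCm38).
Rps27: ctcgcaaaggatctccttcatccctctcca
Rps27rt: ctcgcaaaggatctccttcatccctctcca
Rps27l: ctGgcTaGAgatctGTtAcaCccTtcCTTG
Rps27l differed from Rps27 at 13 of these bases and Rps27rt at 0.

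Most of the family was higher in batch 2. Of the 84 members that passed the filter on low values (mean normalised count above 10, which Rpl3l did not pass), 65 were higher in batch 2 than in batch 1 (77.4%), compared with 13.5% of the 10448 genes tested, and 1 was lower (1.19%), compared with 13.8% of all genes (DESeq2, batch and genotype in the model, Benjamini-Hochberg adjusted p under 0.05). The median log2 fold change of the members was 0.51 (1.42-fold) and that of all genes 0.00, and 81 members were above 0, compared with 50.1% of all genes. In 44 of the 84 members every embryo of batch 2 lay above every embryo of batch 1 in normalised counts, as did 6.46% of all genes, and in 1 (Rpl7l1) every embryo of batch 2 lay below (6.52% of all genes). In TPM these counts were 26 above (3.01% of all genes) and 1 below (9.71%). In bulk RNA of an embryo, fewer cells and less RNA per cell cannot be told apart, and these values are shares of each library's RNA.

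Genes of both subunits rose: 28 of 31 small-subunit genes (median log2 fold change 0.51) and 36 of 46 large-subunit genes (0.53) were called higher. Among the 7 paralogs tested, 1 was called higher and 1 lower, with a median of 0.35. The shares called higher were 90.3% of small-subunit genes, 78.3% of large-subunit genes and 14.3% of paralogs, beside 13.5% of all genes. The paralog called lower was 14.3% of the paralogs, beside 13.8% of all genes, so the paralogs were near the share of all genes. The summed share of TPM in batch 1 was 10.99%, 11.6% and 11.01% in the controls and 11.3% and 10.8% in the mutants. The lowest embryo of batch 2 was control replicate 2 at 11.96%, and its 5 companions held 13.6% to 13.9%. All batch 2 embryos were above all batch 1 embryos, and within each batch the mutants and controls overlapped.

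**Figure D2:**
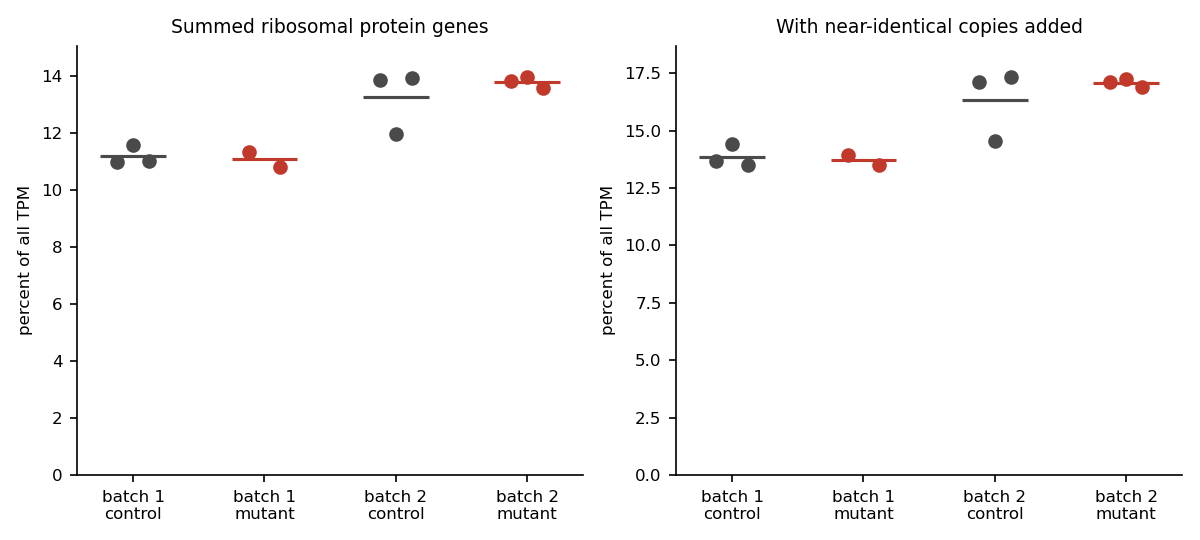
The vertical axes give the summed TPM of the 85 ribosomal protein genes as a percent of all TPM, alone on the left and with near-identical noncoding copies added on the right; each point is 1 embryo and each line the mean of its batch and genotype. Batch 2 lies between 11.96% and 13.9% on the left and batch 1 between 10.8% and 11.6%, with mutants and controls of a batch at similar levels.

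Among the largest rises were those of Rpl5, Rps27l, Rpl37 and Rps19. Rps19, a small-subunit protein mutated in Diamond-Blackfan anaemia, had normalised counts of 3319 to 4289 (median 3595) in batch 1 and of 4858 to 7157 (median 6305) in batch 2, without overlap. Its log2 fold change was 0.75 ± 0.15 (SE, n = 5 and 6, DESeq2 adjusted p = 8.39e-06).

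Rps27l had counts of 1407 to 2141 in batch 1 and 2486 to 4699 in batch 2 (log2 fold change 0.81 ± 0.20, SE, DESeq2 adjusted p = 8.13e-04). Rpl37, a zinc-binding protein of the large subunit, had 892 to 1246 in batch 1 and 1282 to 2145 in batch 2 (0.76 ± 0.17, adjusted p = 9.55e-05). Rpl5 had 184 to 288 and 323 to 544 (0.81 ± 0.20, adjusted p = 5.57e-04), and its level alone is uncertain because of its copy. With copies summed the change of Rpl5 was 0.51, and with limma on log2(TPM + 1) it was 0.48, both still called. Rpl5 was not called in the controls alone (0.89, adjusted p = 0.0502) or the mutants alone (0.73, adjusted p = 0.11), and Rpl37 was not called in the controls alone (0.72, adjusted p = 0.063). Normalised counts of Rps27l, Rpl37 and Rpl5 did not overlap between the batches.

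Rpl7l1 was the single member called lower. Its normalised counts were 1554 to 1920 (median 1775) in batch 1 and 1199 to 1382 (median 1221) in batch 2, without overlap and in the opposite direction to its relative Rpl7 (0.52 ± 0.12, adjusted p = 2.99e-04). Its log2 fold change was -0.52 ± 0.11 (SE, DESeq2 adjusted p = 7.31e-05), and it was not called in the controls alone (-0.52, adjusted p = 0.116) or the mutants alone (-0.51, adjusted p = 0.113). The other 18 members were not called: Rpl3 had -0.06 ± 0.18, Rps27rt 0.03 ± 0.21, Rpl39 0.09 ± 0.26, Rplp0, the scaffold of the stalk, 0.15 ± 0.11, and Rps2 0.17 ± 0.11.

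**Figure D3:**
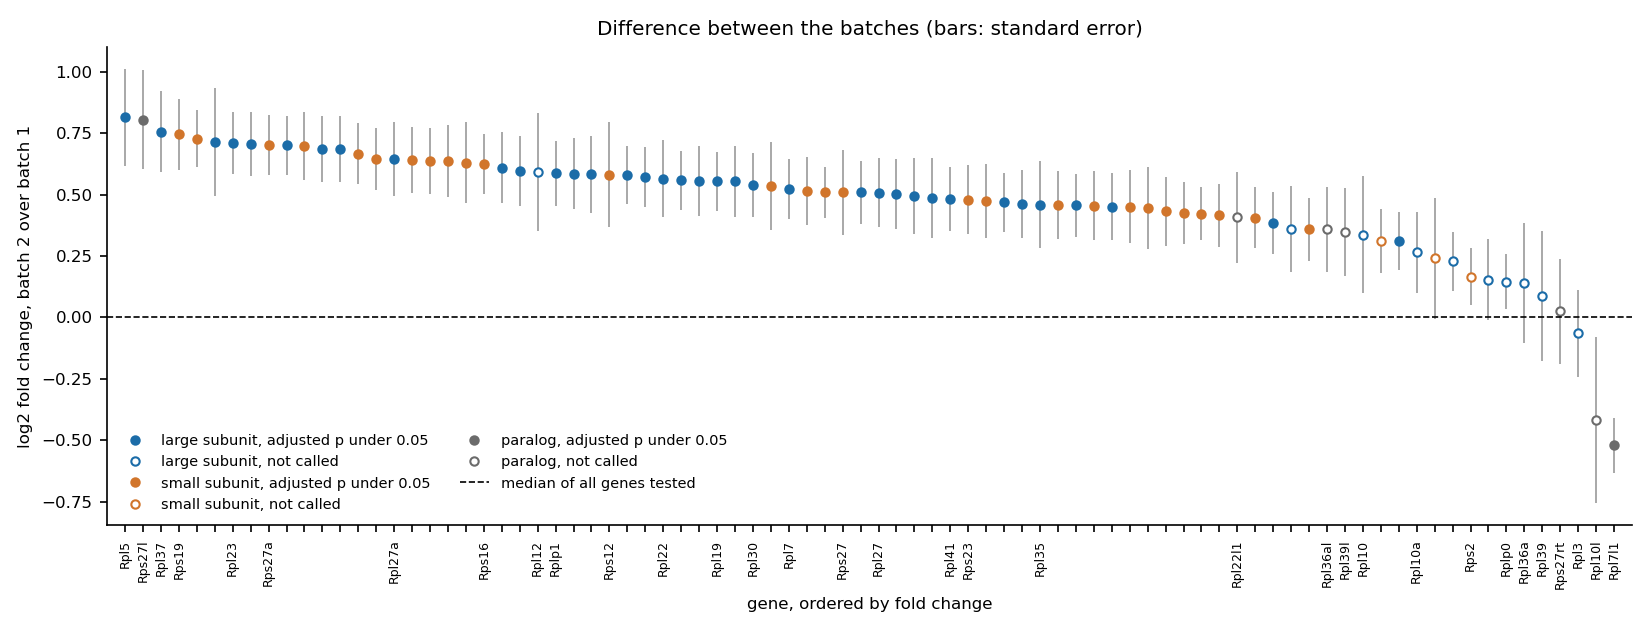
The horizontal axis holds the 84 tested members in order of change, with the genes named in the text labelled, and the vertical axis gives the log2 fold change of batch 2 over batch 1 from DESeq2, with bars of 1 standard error; filled points passed an adjusted p of 0.05, and the dashed line is the median of all genes tested. Of the points, 81 lie above 0, from 0.03 to 0.81, and Rpl7l1, Rpl10l and Rpl3 lie below.

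Within the controls alone the median log2 fold change of the members was 0.47, with 80 of 84 above 0 (50.7% of all genes), and within the mutants alone it was 0.56, with 82 of 85 above 0 (51.0% of all genes). Calls fell to 9 members higher in the controls alone (6.45% of all genes) and 36 in the mutants alone (5.14% of all genes), with 0 lower in either (7.43% and 4.77% of all genes). On log2(TPM + 1) with limma, 35 members were higher and 1 lower, and the median was 0.30. Among all genes 5.65% were called higher and 18.2% lower on this scale, with a median of -0.20. The shift of the members relative to the median gene was thus similar on both scales.

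Other short, abundant transcripts also stood higher in batch 2. Of 192 genes outside the family with an effective length under 1000 bases and a mean normalised count above 1000, 87 were called higher (45.3%) and 7 lower, with a median of 0.36. Members had a median effective length of 573 bases, and all tested genes one of 2038 bases. Over the 84 members the log2 fold change between batches had a Pearson correlation of -0.34 and a Spearman correlation of -0.20 with log2 effective length, of 0.22 and 0.04 with log2 TPM, and of 0.01 and 0.01 with the GC percent of the transcripts. Genes are not independent replicates, and the part of length in the batch difference was not tested.

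Ovgp1, the glycoprotein that oviduct epithelium secretes, was at 0.00 to 0.81 TPM in batch 1 and at 1.45 to 30.1 TPM in batch 2, while the other 5 oviduct genes did not exceed 2.32 TPM. The summed blood genes were at 1.24 to 5.90 TPM in batch 1 and 2.29 to 33.6 TPM in batch 2. Of the 8 genes of the early embryo, 5 were called lower in batch 2 and 1 higher (13.8% and 13.5% of all genes), with a median log2 fold change of -0.56. The lower ones included Fgf4 (-1.98 ± 0.47, SE), Pou5f1 (-1.53 ± 0.31), Tfap2c (-0.94 ± 0.16) and Tead4 (-0.76 ± 0.19), which are genes of pluripotency and early lineages, and the higher one was Dppa3 (0.43 ± 0.13), a maternal-effect gene. All these genes move with the same contrast, and their part in the result was not tested. Batch and PCR cycle number cannot be told apart.

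Between genotypes no member passed the threshold. Of the 84 members 0 were called, compared with 1.35% of all genes (141 of 10448, 0.526% higher and 0.823% lower in mutants), and edgeR (0.0763% of all genes higher and 0.257% lower) and limma (0.21% of all genes either way) also called 0. At an unadjusted p under 0.05 there were 2 members (2.38%), Rpl19 and Rpl3, both lower in mutants, compared with 11.9% of all genes (6.2% lower and 5.74% higher), and edgeR gave 2 as well (9.49% of all genes). The median log2 fold change of the members was 0.04 (quartiles -0.03 and 0.11) and that of all genes 0.00, with 53 members above 0 (49.8% of all genes) and 31 below. The labels do not say whether embryos of a group came from separate litters, so that p-values measure the spread between these embryos. Of the 8 genes of the early embryo 1 was called between genotypes, beside 1.35% of all genes. It was Klf5, a factor of early lineages, at 0.84 on the log2 scale (DESeq2 adjusted p = 1.18e-06), and the median of the 8 was 0.38, with values from -1.45 (Fgf4) to 0.90 (Pou5f1), neither of them called. Their part in the values of the members was not tested. Without control replicate 2, the shallowest library, the median of the members was -0.03.

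**Figure D4:**
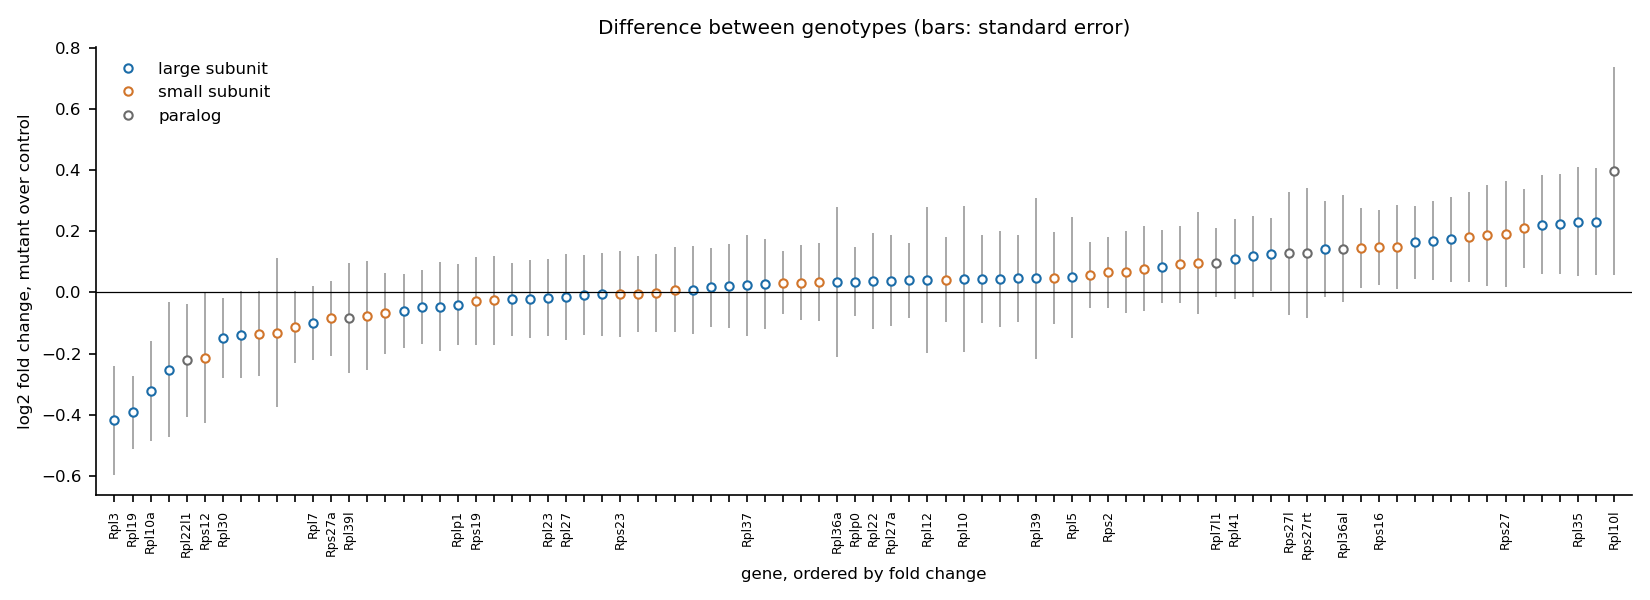
The horizontal axis holds the 84 tested members in order of change, with the genes named in the text labelled, and the vertical axis gives the log2 fold change of mutant over control embryos from DESeq2 with batch in the model, with bars of 1 standard error. No member was called; Rpl3, Rpl19 and Rpl10a stand at the low end with -0.42, -0.39 and -0.32, and the quartiles of the members lie at -0.03 and 0.11.

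Rpl19 (ENSMUSG00000017404.12, chr11:98026710-98030492, plus strand, GRCm38) encodes a large-subunit protein that takes part in a bridge to the small subunit. The study lists it, with Rpl22, Rps19 and Rpl7l1, beside a PRDM10 binding site in embryonic stem cells. The authors call Rpl19 a PRDM10-regulated target and report a modest decrease, of less than 2-fold, in mutant embryos. They also report that depletion of Rpl19 slowed the growth of embryonic stem cells. In batch 1 the controls had normalised counts of 5732, 7909 and 7541 and the mutants 5395 and 5469. In batch 2 the controls had 10151, 10083 and 11087 and the mutants 7966, 7915 and 7820. Every mutant lay below every control of its batch, by a small margin in batch 1, where control replicate 4 was near the mutants.

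Rpl19 was the single member, of 84, with that separation within both batches, which 1.41% of all genes also had, and no member had the opposite one (1.33% of all genes). Its log2 fold change was -0.39 ± 0.12 (SE, n = 5 mutants and 6 controls, DESeq2 adjusted p = 0.0685), and edgeR gave an adjusted p of 0.252. It was -0.37 in batch 1 alone and -0.40 in batch 2 alone. Without control replicate 4 it was -0.45 with an adjusted p of 0.0098, which passed the threshold, and over the other embryos left out in turn the adjusted p was 0.0754 to 0.313. For the difference of the genotype change between batches, 0 members were called by DESeq2 (0.0382% of all genes) and 0 by edgeR (0 of all genes), and at an unadjusted threshold of 0.05 these were 0 members with either tool (4.3% and 3.23% of all genes).

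Reads of Rpl19 could fall on copies as well, since 64.5% of the 75-base stretches of its transcripts recur in other records. The 9 noncoding copies added little to its level, however (2387 TPM to 2486 TPM), and with copies summed its log2 fold change was -0.39 (adjusted p = 0.0661). This summing was chosen after the data had been seen.

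Set against the rest of the family within each library, Rpl19 was lower in the mutants. The measure was the log2 Rpl19 count minus the mean log2 count of the other 83 tested members, which does not depend on the scaling of the library. Turned back to a linear ratio, as a percent of the (geometric) control mean of the same batch, it stood at 90.3, 111 and 99.4 in the controls of batch 1 and at 77.1 and 78.3 in its mutants. In batch 2 it stood at 92.6, 112 and 96.3 in the controls and at 75.7, 68.5 and 72.8 in the mutants. All 5 mutants lay below all 6 controls. The difference in means was -0.41, that is 0.75-fold (24.9% lower), with p = 0.01 in a two-sided exact permutation test over the 200 arrangements within batches, which can reach 0.005 at the least. Within batch 1 the ratio was 0.78 and within batch 2 it was 0.72. Rpl19 had been chosen with earlier results of these data known, so that this p is not independent support.

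By the same measure the other 83 members differed by -0.49 to 0.22, with quartiles of -0.04 and 0.09. Only Rpl3 had a lower value than Rpl19, and its embryos overlapped. Rpl30 and Rps27a also lay below the controls in every mutant of both batches, with differences of -0.17 and -0.09, and Rps16 lay above, with 0.14. The share of all genes with such a separation on this measure was not obtained, so these separations cannot be called unusual. The SD of Rpl19 around its batch and genotype means was 0.12 on this log2 scale, and the median over members was 0.14.

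**Figure D5:**
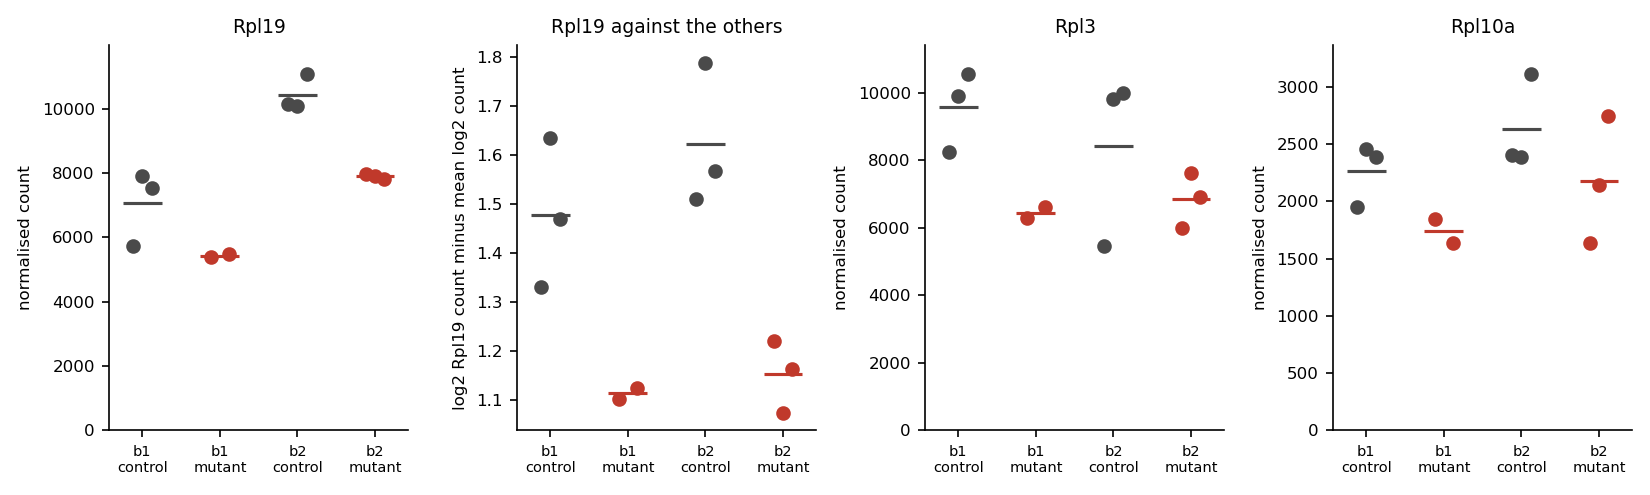
Each point is 1 embryo and each line a mean, with batch 1 (b1) and batch 2 (b2) and controls and mutants side by side; the panels headed Rpl19, Rpl3 and Rpl10a give normalised counts, and the other panel the log2 Rpl19 count minus the mean log2 count of the other members. In that panel all controls lie at 1.33 or above and all mutants below it, whereas Rpl3 and Rpl10a overlap between genotypes in batch 2.

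Rpl3 (chr15:80077791-80091868, minus strand), which lies close to the peptidyl transferase centre, had normalised counts of 8246, 9898 and 10561 in the controls of batch 1 and 6275 and 6626 in its mutants. In batch 2 the controls had 5468, 9817 and 10003 and the mutants 5987, 7630 and 6925. Control replicate 1 was thus the lowest of all 11 embryos, and the groups overlapped in batch 2 but not in batch 1. The log2 fold change was -0.42 ± 0.18 (SE, DESeq2 adjusted p = 0.296). Without control replicate 1 it was -0.55 with an adjusted p of 0.00521, and without any other single embryo the gene was not called.

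Rpl10a (chr17:28328471-28331033, plus strand), a large-subunit protein found on only some ribosomes in stem cells, had controls of 1950, 2456 and 2386 and mutants of 1850 and 1632 in batch 1. In batch 2 the controls had 2409, 2386 and 3115 and the mutants 1636, 2145 and 2749. Its log2 fold change was -0.32 ± 0.16 (SE, DESeq2 adjusted p = 0.444). It was named after its value had been seen next to those of Rpl19 and Rpl3. A pseudogene with all of its 31-base words inside Rpl10a was listed at 594 TPM beside 631 TPM for the gene itself.

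The other 3 genes that the study lists beside a binding site were not called between genotypes. In normalised counts, Rpl22 had controls of 1183 to 2157 (median 1394) and mutants of 1580, 2185, 2031, 1360 and 1267. Its change was 0.04 ± 0.16 (SE) on the log2 scale. Rps19 had -0.03 ± 0.15 and Rpl7l1 0.10 ± 0.11, with adjusted p-values of 0.979 and 0.834 in DESeq2. All 3 ranges overlapped, and their changes were between 0.03 and 0.10 in size beside 0.39 for Rpl19.

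Among the members whose log2 normalised counts followed Rpl19 most closely over the 11 embryos were Rpl7 (Pearson r = 0.89, Spearman 0.85) and Rpl30 (0.89 and 0.85). The points share the difference between batches. After batch and genotype means were removed, r was 0.91 for Rpl7 and 0.70 for Rpl30.

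The study tested PRDM10 binding with a pair of gel shift probes of 28 bases, printed here with the 8 bases that differ between them in capitals.
Probe with the motif: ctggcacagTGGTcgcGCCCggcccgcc
Probe with the motif changed: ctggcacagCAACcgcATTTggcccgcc
The changed letters spell TGGTNNNGCCC, which was searched on both strands of the same RefSeq windows of 300 bases. It was present in 4 of the 65 members with a window (6.15%) and in 1.69% of all 27025 genes. The matching 30-base stretches are given on the gene's strand, with the letters of the motif in capitals.
Rpl10a, chr17:28328445-28328474 (+): gcagccgcgTGGTggcGCCCccccagcggc
Rpl12, chr2:32961483-32961512 (+): caggacctcTGGTgcaGCCCtactctgttg
Rpl27a, chr7:109519140-109519169 (+): atgaagcatTGGTcccGCCCccgcgcctgc
Rpl37, chr15:5116563-5116592 (+): ggcctgataGGGCtgcACCAagacccgccg
In Rpl37 the motif lies on the opposite strand. The log2 fold changes between genotypes of these 4 genes were -0.32 ± 0.16 for Rpl10a, 0.04 ± 0.24 for Rpl12, 0.04 ± 0.15 for Rpl27a and 0.02 ± 0.16 for Rpl37, none of them called. These letters did not occur in the windows of Rpl19, Rpl22, Rps19 or Rpl7l1. They are an exact string from the probes, whereas the study derived its motif from its binding sites. The study also assigned binding sites to genes over a wider span than these windows. Absence here therefore does not mean that a gene lacks a PRDM10 site.

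Genes of ribosomal proteins outside the symbol pattern were also higher in batch 2. Fau, which encodes a small-subunit protein fused to a ubiquitin-like domain, and Rack1, a scaffold on the small subunit, were both called (Fau 0.42 ± 0.14 and Rack1 0.42 ± 0.14 on the log2 scale), and neither was called between genotypes. Among 20 other mRNAs with a TOP tract, 9 were higher and 4 lower in batch 2, with a median of 0.41, beside 13.5% higher and 13.8% lower among all genes. Npm1, a nucleolar chaperone, rose by 0.64 ± 0.13, and Eef2, the translocation factor, fell by 1.24 on the log2 scale (SE 0.20, DESeq2 adjusted p = 1.62e-08).

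Between genotypes 1 of these 20 was called, beside 1.35% of all genes. Eef1d, a subunit of the exchange factor for eEF1A, fell by 2.77 on the log2 scale in mutants (SE 0.20, DESeq2 adjusted p = 1.43e-38), and the list's median was 0.04. Of 17 regulators of TOP mRNAs and mTOR signalling, 0 were called between genotypes, beside 1.35% of all genes, which for 17 genes is under 1 call. Between batches 7 were higher and 2 lower, beside 13.5% and 13.8% of all genes, with Larp1, which binds the TOP tract, at 0.71 ± 0.19.

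Of 10 chaperones and assembly factors of ribosomal proteins, 1 was lower in mutants and 0 were higher, beside 0.823% and 0.526% of all genes. It was Bccip, a chaperone of RPL23, with a log2 fold change of -1.17 ± 0.23 (SE, DESeq2 adjusted p = 2.03e-04). Rpl23 itself had -0.02 ± 0.13 between genotypes. Between batches 1 of the 10 was higher and 3 were lower, beside 13.5% and 13.8% of all genes, with a median of -0.37.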

How the data were processed

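The authors mapped single-end reads with STAR 2.6.0c to GRCm38.p6 and quantified genes with RSEM, and deposited 1 table per embryo with expected counts, TPM, effective lengths and posterior SDs of the counts. RSEM divides reads shared between genes among them, and the reads carry no molecular identifiers. The authors' own DESeq2 1.22.2 table holds fold changes and p-values and was not used. Expected counts were rounded to whole numbers and fitted over all genes with DESeq2 1.42.0 (R 4.3.3), with batch and genotype as terms, a mean normalised count above 10 and Benjamini-Hochberg adjustment (threshold 0.05). Alternatives were edgeR 4.0.16, limma 3.58.1 on log2(TPM + 1), other size factors and filters, an offset for effective length, subsets of embryos and each embryo left out in turn. The tests were tried on simulated data. For Rpl19 relative to the other members, 0.5 was added to counts and genotypes were permuted within batches.

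Copies were found from 31-base words, and shared sequence from stretches of the read length of 75 bases. Named genes were Rpl19, the 3 other members beside a binding site, members called or with an unadjusted p under 0.05 between genotypes, the 5 highest and 5 lowest levels, the 5 largest changes each way between batches, the paralog pairs and the 3 members most like Rpl19. Further genes were named after their values were seen. The members and lists were chosen with earlier results of these data known. Some genes that this rule gave are not reported here.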

Additional observations from a re-analysis of the deposited data

Results flagged for a closer look

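Of 60 sets of values tested for an extreme embryo, 1 had one. Chance gives about 1 in every 20 sets, so 1 in 60 is no more than chance gives. The normalised count of Rps27rt was 839.8 in mutant replicate 3 and 631 to 670 in the other 4 mutants. The controls spanned a wider range, from 413.5 to 857. Rps27rt has the coding sequence of Rps27, and 90.3% of its 75-base stretches recur in other records, so that its level apart from Rps27 is uncertain.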

How the results depend on the processing

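Between genotypes, leaving out 1 embryo at a time gave 0 to 1 members called lower: Rpl3 without control replicate 1 (log2 fold change -0.55) and Rpl19 without control replicate 4. In both of these fits 1.07% of all genes were called, and 0.865% to 2.64% over all such fits. The log2 fold change of Rpl19 was -0.45 to -0.36 over these fits. Between batches, the 65 members higher became 35 with limma on log2(TPM + 1), 9 in the controls alone and 36 in the mutants alone, and 52 to 69 with 1 embryo left out. The 1 member lower became 0 in the controls alone and 0 in the mutants alone, where fewer embryos were fitted, and the median became 0.30 with limma. Rpl19 relative to the other members kept its direction and threshold in 7 of 7 alternatives (-0.43 to -0.40) and in 11 of 11 fits with 1 embryo left out (-0.46 to -0.37). Removing a mutant of batch 1 left 1 embryo there, assumed to vary like the other groups. Summing near-identical copies was chosen after seeing the data and changed no call of Rpl19. No paired analysis was possible because the labels do not tie a mutant embryo to a control embryo. The replicate numbers used here follow the order of the samples within each genotype and pair nothing. With 5 mutants and 6 controls that may be heterozygous, small changes could be missed.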

Other observations

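The spread between embryos, after batch and genotype means were removed, differed widely between members. The SD of log2 normalised counts was 0.0873 for Rps3, 0.0907 for Rps2 and 0.0941 for Rpl7l1, and 0.671 for Rpl10l, 0.532 for Rpl39, 0.490 for Rpl36a, 0.484 for Rps4x and 0.468 for Rpl10, with a median of 0.181 over members. Rpl39, Rpl36a, Rps4x and Rpl10 lie on chromosome X. In batch 2 each of them was highest in control replicate 3 and mutant replicate 2. In batch 1 each was lowest in control replicate 5. The labels do not give the sex of the embryos, and its part in this spread was not tested.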
